A study of Mus musculus with 24 samples.

Results

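The genes described here encode the catalytic and PCGF subunits of Polycomb repressive complex 1 (PRC1), with 2 accessory subunits of its variant forms. They were taken by symbol from the deposited count table, which gave 10 of its 26264 genes: *Rnf2*, *Ring1*, *Pcgf1*, *Pcgf2*, *Bmi1*, *Pcgf3*, *Pcgf5*, *Pcgf6*, *Rybp* and *Kdm2b*. The rule uses their names and no measured value, although earlier results of these data were known when it was written. All 10 passed the filter on low counts in both cell lines. PolyA RNA was sequenced from mouse embryonic stem cells (ESCs) of 2 lines, BAP1-AID and UTX-AID, each a single clone grown in serum and leukemia inhibitory factor (LIF). In BAP1-AID ESCs the deubiquitinase BAP1 carries an HA-AID tag at its C terminus, and in UTX-AID ESCs the H3K27 demethylase UTX carries the tag at its N terminus. Cells of both clones stably overexpress the adaptor TIR1, through which the auxin indole-3-acetic acid (IAA) sends the tagged protein for degradation. Each clone was collected without IAA (−IAA) or after IAA pretreatment (+IAA) at 0, 3 and 6 h of retinoic acid (RA), a differentiation signal given in medium lacking LIF, with 2 replicates in each of the 12 groups and 24 libraries in all. IAA was dissolved in ethanol, and whether −IAA cells received ethanol is not given in the sources used here. All groups of a clone, controls included, carry the tag and TIR1.

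PRC1 places ubiquitin on lysine 119 of histone H2A through a RING E3 ligase pair, made of RING1B (encoded by *Rnf2*) or RING1A (*Ring1*) and a PCGF protein. The complexes differ in their PCGF protein. Canonical PRC1, which holds CBX and PHC proteins and is recruited by H3K27me3, is built on MEL18 (*Pcgf2*) or BMI1. PCGF1, PCGF3, PCGF5 and PCGF6 enter variant PRC1, which holds RYBP or its paralogue YAF2 in place of a CBX protein and makes most of the H2A ubiquitin in ESCs. KDM2B brings the PCGF1 complex, called PRC1.1, to CpG islands through a CXXC zinc finger, and BAP1 is the enzyme that takes the ubiquitin off again.

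Averaged over the IAA arms, the transcripts called after 6 h of RA were those of *Kdm2b*, *Rybp* and *Pcgf3* in each clone. Their promoters are shown because KDM2B itself binds unmethylated CpG, with every CG dinucleotide in capitals. Each run lies upstream of the start of the canonical transcript in GENCODE vM39, reads 5′ to 3′ on the gene's strand and is given on mm39, the build of the authors' alignment. *Kdm2b* (chr5:123008720-123127886, 23 exons) and *Rybp* (chr6:100205526-100264452, 5 exons) lie on the minus strand and *Pcgf3* (chr5:108596818-108654842, 11 exons) on the plus strand. The printed stretches are chr5:123127402-123127651, chr6:100264453-100264696 and chr5:108608839-108609088, and the second leaves out 6 bases that an annotated exon of *Rybp* covers. Those of *Kdm2b* and *Pcgf3* lie inside the gene spans given above, whose annotated 5′ ends are further upstream. Stretches before those upstream ends were not examined.
Kdm2b: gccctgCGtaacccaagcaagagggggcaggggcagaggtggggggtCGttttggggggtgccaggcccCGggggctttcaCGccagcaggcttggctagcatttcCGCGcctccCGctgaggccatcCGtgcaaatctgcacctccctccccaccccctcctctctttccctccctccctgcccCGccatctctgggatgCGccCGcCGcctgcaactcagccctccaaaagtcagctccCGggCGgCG
Rybp: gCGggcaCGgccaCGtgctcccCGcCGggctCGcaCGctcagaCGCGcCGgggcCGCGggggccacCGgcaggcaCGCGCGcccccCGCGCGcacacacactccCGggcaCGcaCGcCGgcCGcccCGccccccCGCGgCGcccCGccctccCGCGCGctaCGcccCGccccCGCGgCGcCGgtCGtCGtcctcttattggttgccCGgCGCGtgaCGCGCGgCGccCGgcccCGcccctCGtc
Pcgf3: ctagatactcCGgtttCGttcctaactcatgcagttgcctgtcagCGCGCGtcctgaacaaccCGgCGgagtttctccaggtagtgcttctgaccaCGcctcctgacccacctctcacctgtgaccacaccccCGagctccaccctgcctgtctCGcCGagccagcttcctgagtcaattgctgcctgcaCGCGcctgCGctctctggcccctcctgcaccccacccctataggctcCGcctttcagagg

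In these windows before the canonical start, that of *Rybp* held 50 CpG and those of *Kdm2b* and *Pcgf3* 15 each. The median of 19091 promoters of the same length (250 bases before the start) was 9. Of those promoters, 7 held more than that of *Rybp*. The windows were also searched on both strands for the core site of retinoic acid receptors, here any of AGGTCA and AGTTCA or of GGGTCA and GGTTCA. A match was present in 37.7% of all promoters, and it was found 0 times in the windows of *Kdm2b* and *Rybp* and 1 time in that of *Pcgf3*. Direct repeats of the core site with 5, 2 or 1 bases between the copies occurred in 0.0576%, 0.089% and 0.152% of promoters and in none of the 10 members' windows. These are matches of letters in one short window and describe neither binding nor its absence.

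Library totals lay between 42018795 and 54034789 counts. The 6 ESC markers *Pou5f1*, *Sox2*, *Nanog*, *Esrrb*, *Zfp42* and *Klf4* summed to 1984 to 2412 CPM in BAP1-AID (counts divided by library size after scaling by edgeR's TMM factors over all 24 libraries) and 2055 to 2370 CPM in UTX-AID, whereas the fibroblast markers *Col1a1*, *Col1a2*, *Col3a1* and *Postn* summed to at most 0.644 and 0.795 CPM. Single ESC markers differed between the clones in both directions. *Pou5f1* (1146 to 1522 against 792 to 954 CPM) and *Sox2* (370 to 515 against 207 to 321 CPM) were higher in BAP1-AID than in UTX-AID. *Nanog* (77.1 to 216.5 against 237 to 454 CPM) and *Zfp42* (133 to 185.5 against 473 to 654 CPM) were lower, and *Esrrb* and *Klf4* overlapped. The primitive endoderm markers *Gata4*, *Gata6*, *Sox17* and *Pdgfra* summed to 1.75 to 7.06 CPM in BAP1-AID and 1.15 to 3.51 CPM in UTX-AID. The tag removes protein and not mRNA, and *Bap1* (93.3 to 105.5 CPM in BAP1-AID) and *Kdm6a*, the gene of UTX (93.5 to 125 CPM in UTX-AID), did not pass the test with IAA in their own clone (adjusted p = 0.973 and 0.0717). One library, BAP1-AID −IAA 3 h replicate 1, stood apart from its partner for *Rybp*, *Pcgf3* and *Pcgf6*. Base composition also separated libraries. The correlation of a library's expression with gene GC content, relative to the other libraries of its clone, was 0.224 to 0.475 in the 6 −IAA and −0.532 to −0.286 in the 6 +IAA libraries of BAP1-AID, against −0.239 to 0.134 in UTX-AID. Each comparison was therefore repeated after the trend with GC content and with transcript length had been removed from every library (the GC and length correction).

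To compare genes with each other, levels were divided by the length of the canonical transcript (CPM per kb). In UTX-AID, *Rnf2* had the highest median at 68.3 CPM per kb (range over 12 libraries 63.6 to 76.7), followed by *Rybp* at 56.8 (43.9 to 64.1) and *Pcgf6* at 45.7 (39.6 to 52.4). A middle group came next, with *Kdm2b* at 17.2 CPM per kb (12.7 to 24.6), *Pcgf2* at 14.4 (12.3 to 15.8), *Pcgf1* at 12.8 (10.8 at the lowest) and *Pcgf3* at 10.2 (9.05 to 11.3). *Bmi1* was at 6.67 (5.46 to 8.28), *Ring1* at 2.84 (1.89 to 3.49) and *Pcgf5* at 1.23 (1.02 to 1.58). Neighbours overlapped within the top group and within the middle group, whereas *Pcgf6* and *Kdm2b*, *Pcgf3* and *Bmi1*, *Bmi1* and *Ring1*, and *Ring1* and *Pcgf5* did not.

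In BAP1-AID the order of the counted levels differed at the top. Levels in both clones are uncorrected, and the GC and length correction reduced the clone difference of *Rnf2*, as given below. The change in order is therefore not read as a difference between the clones. *Pcgf6* led at a median of 56.7 CPM per kb (39.4 to 65.6), then *Rybp* at 46.1 (26.8 to 52.5), *Rnf2* at 33.7 (25.5 to 40.0), *Pcgf2* at 22.8 (20.6 to 26.2), *Kdm2b* at 22.6 (14.3 to 32.8) and *Pcgf3* at 15.8 (11.0 to 18.8), with each overlapping its neighbour. *Pcgf1* at 7.81 (6.44 to 10.6), *Bmi1* at 6.12 (4.42 to 8.30) and *Ring1* at 5.06 (4.35 to 5.94) came next, where *Bmi1* overlapped both and *Pcgf1* and *Ring1* were apart, and *Pcgf5* was lowest at 0.984 (0.834 to 1.40). The most abundant PCGF transcript in both clones was therefore *Pcgf6*, the scaffold of PRC1.6, a complex with the DNA-binding factors MGA, MAX and E2F6 that is known for silencing germline genes.

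**Figure D1:**
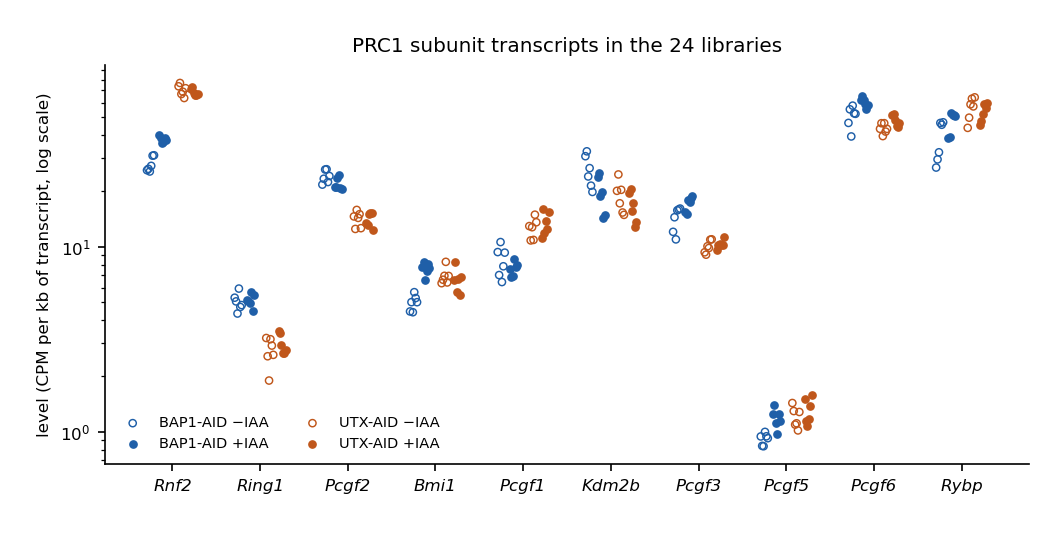
Levels of the 10 PRC1 subunit transcripts in CPM per kb of transcript on a log axis, with one point per library, for BAP1-AID (blue) and UTX-AID (orange), −IAA (open) and +IAA (filled). *Pcgf6*, *Rybp* and *Rnf2* lie highest and *Pcgf5* lowest, with a median near 1 CPM per kb.

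The authors' question for these libraries was whether depletion of BAP1 or UTX changes the response to RA, so the RA response of the members was examined first. With RA, *Kdm2b* fell and *Rybp* rose in both clones within 3 h, and *Pcgf3* rose by 6 h. RA was given in medium lacking LIF, and no library came from cells kept 3 or 6 h in that medium without RA. Effects of RA, loss of LIF and time in culture therefore cannot be told apart. *Pcgf2* rose at 3 h in BAP1-AID alone by this test, a difference between clones that was not tested at that time. Averaged over the −IAA and +IAA arms, 2 members rose and 1 fell after 3 h in BAP1-AID, where 7.26% of the 15695 genes tested rose and 3.91% fell (edgeR's quasi-likelihood test, Benjamini-Hochberg adjusted p under 0.05 over all genes). After 6 h it was again 2 that rose and 1 that fell, against 14.4% and 9.67% of all genes. In UTX-AID, 1 member rose and 1 fell after 3 h (5.51% and 2.75% of 16268 genes), and 2 rose and 1 fell after 6 h (6.92% and 5.52%). With 10 members, these counts are too small to set apart from the background. The median log2 fold change after 6 h over the members was 0.05 (BAP1-AID) and −0.06 (UTX-AID), beside 0.01 and 0.00 over all genes. No member passed the authors' further criterion of an absolute log2 fold change over 1, which 5.12% of genes met at 6 h in BAP1-AID and 2.61% in UTX-AID. The labels do not say whether replicates are separate cultures, so p-values measure the spread between these libraries, which may be technical. In such bulk RNA, a change in all cells and a change in the share of cells that express a gene cannot be told apart.

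*Kdm2b* had the largest 6 h response of the members when the arms were averaged, whereas that of *Rybp* was larger at 3 h in both clones and at 6 h in −IAA BAP1-AID (0.74 against −0.60). In −IAA BAP1-AID ESCs it was at 167 and 178 CPM at 0 h, 129.8 and 144 CPM at 3 h, and 116 and 107 CPM at 6 h. With IAA it was at 129 and 136, then 102 and 108, then 77.6 and 80.5 CPM. The libraries of successive times did not overlap within either arm. Averaged over the arms, its log2 fold change was −0.31 (standard error 0.0536, adjusted p = 0.00184) after 3 h and −0.66 (standard error 0.0538, adjusted p = 1.87e-06) after 6 h, and the step from 3 to 6 h was −0.35 (adjusted p = 0.00212).

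In UTX-AID, *Kdm2b* was at 109 and 133 CPM at 0 h, 93.0 and 110 CPM at 3 h, and 82.9 and 80.5 CPM at 6 h without IAA. With IAA the values were 105 and 111, 84.4 and 93.4, and 68.8 and 73.4 CPM. The 0 h and 3 h libraries overlapped without IAA and were apart with IAA, and those at 6 h were below all others of their arm. Averaged over the arms, *Kdm2b* had a log2 fold change of −0.25 (standard error 0.0643, adjusted p = 0.0242) after 3 h and −0.56 (standard error 0.0647, adjusted p = 1.43e-05) after 6 h. The call at 3 h in UTX-AID was lost without any of 4 libraries (UTX-AID +IAA 0 h replicate 2, +IAA 3 h replicate 1, −IAA 0 h replicate 2 or −IAA 3 h replicate 1), and the value then lay between −0.23 and −0.18. The 6 h response ran from −0.69 to −0.66 in BAP1-AID and from −0.59 to −0.56 in UTX-AID over 7 alternatives, the GC correction included. The deposited count joins the *Kdm2b* isoforms, so the long form with the demethylase domain and the short form without it are not separated.

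*Rybp*, the H2A-ubiquitin-binding subunit of variant PRC1, moved the other way. In −IAA BAP1-AID ESCs it was at 120.5 and 133 CPM at 0 h, 146 and 210 CPM at 3 h, and 205 and 212 CPM at 6 h. With IAA it was at 174 and 176, 237 and 232, and 232 and 229 CPM. In both arms every 3 h and 6 h library lay above the 0 h libraries, and with IAA the level at 6 h was no higher than at 3 h. Its log2 fold change was 0.47 (standard error 0.0892, adjusted p = 0.00344) after 3 h and 0.58 (standard error 0.0893, adjusted p = 0.000433) after 6 h. The 3 h value was 0.59 without BAP1-AID −IAA 3 h replicate 1 and 0.31 without replicate 2 of that group, and was called either way.

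In UTX-AID, *Rybp* was at 198 and 224 CPM at 0 h, 265 and 284 CPM at 3 h, and 258 and 289 CPM at 6 h without IAA. With IAA the values were 206 and 216, 234.5 and 267, and 254 and 268.5 CPM. All libraries at 3 and 6 h were above those at 0 h in their arm. On the log2 scale this was 0.33 (standard error 0.0528, adjusted p = 0.000512) after 3 h and 0.36 (standard error 0.0528, adjusted p = 0.000153) after 6 h. The step from 3 to 6 h was 0.11 (BAP1-AID) and 0.03 (UTX-AID), which did not pass the test (adjusted p = 0.535 and 0.916), with 95% intervals of −0.09 to 0.30 and −0.08 to 0.14. Together, the length-scaled ratio of *Rybp* to *Kdm2b* went from 0.886 ± 0.0254 to 1.55 ± 0.285 and 2.26 ± 0.174 at 0, 3 and 6 h in −IAA BAP1-AID (SD, n = 2), and from 2.11 ± 0.114 to 3.27 ± 0.224 and 4.03 ± 0.403 in −IAA UTX-AID.

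*Pcgf3*, the scaffold of PRC1.3, rose later and less. In BAP1-AID the −IAA libraries had 92.8 and 111 CPM at 0 h and 123 and 124 CPM at 6 h, and the +IAA libraries 119 and 115 CPM and then 141 and 145 CPM. In UTX-AID they had 72.0 and 69.8 CPM and then 84.2 and 84.6 CPM, and 74.2 and 78.7 CPM and then 78.5 and 87.3 CPM. The 6 h libraries were above the 0 h libraries in 3 of the 4 arms, and overlapped in UTX-AID +IAA, where 1 of the 6 h libraries lay at the level of 0 h. *Pcgf3* thus had a log2 fold change of 0.30 (standard error 0.0952, adjusted p = 0.0359) in BAP1-AID and 0.21 (standard error 0.0485, adjusted p = 0.00876) in UTX-AID. The BAP1-AID call rested on the full set. It held in 3 of 12 fits that each left out 1 library (−IAA 0 h replicate 2 or either −IAA 3 h replicate), over which the value was 0.24 to 0.38. The UTX-AID call was lost without +IAA 0 h replicate 1 (0.19) or +IAA 6 h replicate 2 (0.17). With all 24 libraries in one fit, the UTX-AID call was lost (0.18, adjusted p = 0.148). Its close relative *Pcgf5* was at 5.93 to 9.94 CPM in BAP1-AID and 7.22 to 11.2 CPM in UTX-AID and did not pass the test at 6 h (−0.02 in both clones).

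**Figure D2:**
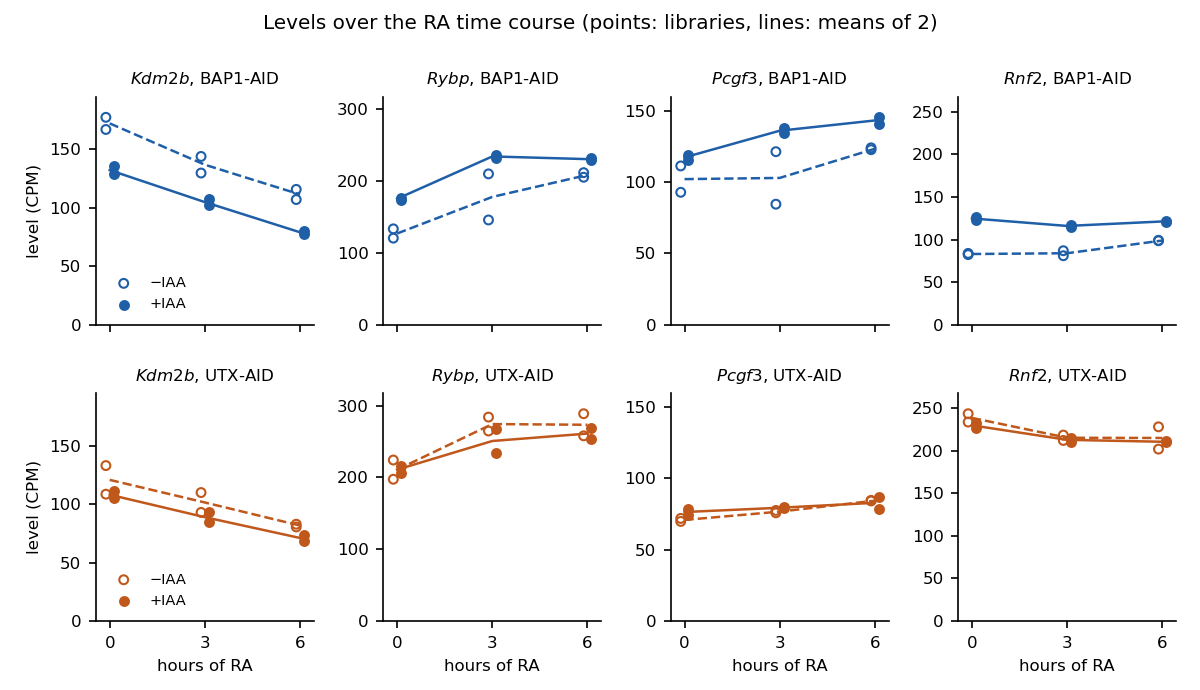
Levels in CPM (from 0) of *Kdm2b*, *Rybp*, *Pcgf3* and *Rnf2* against hours of RA in BAP1-AID (top) and UTX-AID (bottom), with one point per library (open −IAA, filled +IAA) and lines through the means of 2. *Kdm2b* falls and *Rybp* rises in both clones, and 1 −IAA library of BAP1-AID at 3 h lies low for *Rybp* (146 CPM) and *Pcgf3* (84.5 CPM).

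Among the canonical scaffolds, *Pcgf2* was at 60.3 and 64.8 CPM at 0 h, 72.7 and 73.0 CPM at 3 h, and 62.2 and 67.0 CPM at 6 h in −IAA BAP1-AID, and at 58.6 and 58.7, 65.3 and 68.2, and 57.9 and 57.3 CPM with IAA. The 3 h libraries were the highest in each arm. The log2 fold change was 0.22 (standard error 0.0487, adjusted p = 0.00891) from 0 to 3 h and −0.19 (adjusted p = 0.0335) from 3 to 6 h. The rise was lost without +IAA 0 h replicate 1 or 2 or +IAA 3 h replicate 2 (0.19 to 0.20), and with all 24 libraries in one fit (0.20, adjusted p = 0.0594). The return was called in 4 of 7 alternatives and in 4 of 12 fits without 1 library, those that left out a −IAA library of 0 or 3 h. In UTX-AID the value at 3 h was 0.19 (adjusted p = 0.202). *Bmi1*, a cell-cycle and self-renewal gene through its repression of the *Cdkn2a* locus, did not pass the test at 6 h in either clone (0.07 and −0.09, adjusted p = 0.621 and 0.650).

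The catalytic gene *Rnf2* was at 82.3 and 83.7 CPM at 0 h and at 98.6 and 99.1 CPM at 6 h in −IAA BAP1-AID, a log2 fold change of 0.28 (standard error 0.0630, adjusted p = 0.00937), lost without −IAA 0 h replicate 1 or either 6 h replicate (0.25 to 0.26). With the GC and length correction this became 0.06 (adjusted p = 0.584). Averaged over the arms, *Rnf2* gave 0.13 in BAP1-AID and −0.12 in UTX-AID (adjusted p = 0.0551 and 0.0883). The difference between the clones was 0.24 (adjusted p = 0.0422; 2.17% of 16816 genes were called higher and 0.535% lower), held in 3 of 24 fits without 1 library (either BAP1-AID −IAA 3 h replicate or UTX-AID −IAA 6 h replicate 2), and was 0.10 (adjusted p = 0.497) with the correction. *Ring1*, *Pcgf1* and *Pcgf6* did not pass the test at 3 or 6 h in either clone, with log2 fold changes of −0.23 to 0.17.

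**Figure D3:**
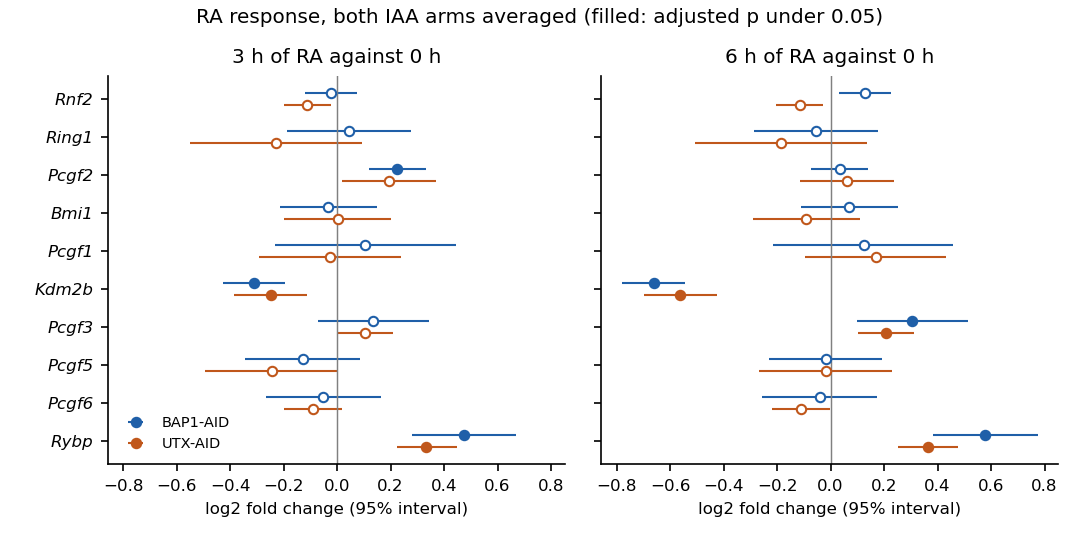
Log2 fold changes of the 10 members after 3 h and 6 h of RA, averaged over the IAA arms, with 95% intervals, in BAP1-AID (blue) and UTX-AID (orange); filled points have an adjusted p under 0.05. *Kdm2b* lies left of 0 and *Rybp* right of 0 in both clones and at both times.

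Other PRC1 genes were examined as a fixed list of 31, all of them tested. Their values are given without the GC and length correction. After 6 h of RA, 4 rose and 11 fell in BAP1-AID (14.4% and 9.67% of all genes), and 0 rose and 6 fell in UTX-AID (6.92% and 5.52% of all genes). Across all genes with a GC value, Spearman's rho between GC content and the 6 h response was −0.182 (BAP1-AID) and −0.009 (UTX-AID). The correction took the BAP1-AID background from 2256 higher and 1517 lower to 1735 and 2184. That of UTX-AID went from 1125 and 898 to 1101 and 1158. Whether the counts of the 31 genes and their contrast between the clones hold with the correction was not tested. The partner of *Kdm2b* in PRC1.1, the BCL6 corepressor *Bcor*, fell in both clones, with log2 fold changes of −0.95 in BAP1-AID (standard error 0.0736, adjusted p = 1.25e-06) and −0.72 in UTX-AID (standard error 0.0830, adjusted p = 1.38e-05). Of the 9 genes of canonical PRC1, 2 rose and 6 fell in BAP1-AID, and 0 rose and 1 fell in UTX-AID, where 4 had an unadjusted p under 0.05. Among those of BAP1-AID, the chromobox genes *Cbx6* (−0.67, adjusted p = 1.49e-06) and *Cbx2* (−0.54, adjusted p = 0.000530) fell, and *Scmh1* (0.67, adjusted p = 0.000159) and the Polyhomeotic gene *Phc2* (0.33, adjusted p = 0.00538) rose. *Cbx1*, the gene of HP1β, rose by 0.23 (adjusted p = 0.0301). In UTX-AID, *Auts2* of PRC1.3 and PRC1.5 (−0.76, adjusted p = 6.88e-05) and *Mga* of PRC1.6 (−0.20, adjusted p = 0.000470) fell too. The RYBP paralogue *Yaf2*, whose values were seen before it was named, gave 0.23 in BAP1-AID and 0.03 in UTX-AID (adjusted p = 0.1003 and 0.938).

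Whether IAA altered the RA response was tested as the difference between the response with and without IAA. Time since IAA was added rose with RA time, so an altered RA response and a longer time since IAA cannot be told apart. In both clones and at both times, 0 members were called. Of all genes, 0% (3 h) and 0.153% (6 h) were called in BAP1-AID, beside 0.0123% (3 h) and 0% (6 h) of those in UTX-AID. On simulated counts modelled on BAP1-AID, the 6 h test recovered 16 of 100 genes altered by 0.5 on the log2 scale. At 1 it recovered 77 of 100. Alterations near the size of the members' own RA responses could therefore go uncalled. At an unadjusted p under 0.05, the members numbered 0 and then 1 for the 3 h and 6 h responses of BAP1-AID, and 1 and then 0 for those of UTX-AID. The one in BAP1-AID was *Rnf2*, whose 6 h response was lower with IAA (log2 difference −0.30, standard error 0.0888, adjusted p = 0.234), and DESeq2 called it (adjusted p = 0.0232), its only call among the members in these 4 tests. The one in UTX-AID was *Bmi1* at 3 h (−0.49, adjusted p = 1.0). For *Kdm2b*, the response at 6 h differed between the arms by −0.12 in BAP1-AID (95% interval −0.36 to 0.11) and by −0.03 in UTX-AID (−0.30 to 0.25). For *Rybp* these were −0.33 (−0.72 to 0.06) and −0.05 (−0.28 to 0.17). The interval for *Rybp* in BAP1-AID reached past the size of its averaged response of 0.58, and the other 3 did not reach past theirs.

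The +IAA and −IAA arms were then compared as an average over the RA times, which joins different times since IAA was added. No library came from untagged cells given IAA, so depletion of the tagged protein and other effects of IAA cannot be told apart. The arms of BAP1-AID also differed in their trend with GC content. In BAP1-AID, IAA left 6 members higher and 2 lower, where 17.9% of genes were higher and 18.2% lower, and the median over the members was 0.25 against −0.04 over all genes. None changed by more than 1 on the log2 scale (1.51% of genes did). In UTX-AID, 0 members were called (0.861% of genes were higher and 1.76% lower), 2 members had an unadjusted p under 0.05, and DESeq2 called the same 2, *Kdm2b* and *Pcgf6*.

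*Kdm2b* was lower with IAA at each RA time in BAP1-AID. As given above, all 6 +IAA libraries were below the −IAA libraries of their time. The log2 fold change was −0.44 (standard error 0.0438, adjusted p = 1.20e-05) averaged over time, and −0.40, −0.39 and −0.52 at 0, 3 and 6 h. It was −0.35 (adjusted p = 4.00e-05) with the GC and length correction. In UTX-AID it was −0.18 (standard error 0.0527, adjusted p = 0.0908, or 0.0201 by DESeq2). Between the clones the effect differed by −0.24 (standard error 0.0759, adjusted p = 0.0246), and by −0.16 (adjusted p = 0.0974) with the correction. This call was also lost without BAP1-AID +IAA 0 h replicate 1, BAP1-AID −IAA 6 h replicate 1, UTX-AID +IAA 3 h replicate 2 or UTX-AID −IAA 0 h replicate 1, at −0.22 to −0.18.

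*Bmi1* had the largest change with IAA in BAP1-AID as counted, and *Kdm2b* the largest with the correction. Without IAA it was at 16.9 and 19.0 CPM at 0 h, 16.7 and 21.5 CPM at 3 h, and 20.0 and 19.0 CPM at 6 h. With IAA it was at 29.5 and 31.4, 24.9 and 28.1, and 30.7 and 29.1 CPM. The arms did not overlap. The log2 fold change was 0.60 (standard error 0.0684, adjusted p = 3.18e-05), and 0.32 (adjusted p = 0.00302) with the correction. In UTX-AID, *Bmi1* was at 20.7 to 31.3 CPM with a value of −0.07 (adjusted p = 0.741), and the clones differed by 0.69 (adjusted p = 5.76e-05), or by 0.38 (adjusted p = 0.0109) with the correction.

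*Rnf2* followed the same pattern. In BAP1-AID it was at 82.3 and 83.7, 80.9 and 86.8, and 98.6 and 99.1 CPM at 0, 3 and 6 h without IAA, and at 127 and 123, 115 and 117, and 122 and 120.2 CPM with IAA. The arms were apart, with the gap smallest at 6 h. The log2 fold change was 0.43 (standard error 0.0363, adjusted p = 3.23e-06), and the correction left 0.11 (adjusted p = 0.0255) on average and reversed the value at 6 h, from 0.27 to −0.05 (adjusted p = 0.670). In UTX-AID, *Rnf2* was at 202 to 244 CPM with a value of −0.03 (adjusted p = 0.737). The clones differed by 0.48 (adjusted p = 3.79e-07), or by 0.14 (adjusted p = 0.0302) with the correction.

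The other calls in BAP1-AID did not hold with the correction. *Rybp* (0.32, adjusted p = 0.00473) went to 0.09, *Pcgf5* (0.35, adjusted p = 0.00466) to 0.00, *Pcgf6* (0.24, adjusted p = 0.0384) to 0.21 (adjusted p = 0.0519), *Pcgf3* (0.26, adjusted p = 0.0223) to −0.03 and *Pcgf2* (−0.14, adjusted p = 0.0136) to 0.04, so the last 2 changed sign. The calls of *Pcgf2* and *Pcgf6* were each lost in 6 of 12 fits without 1 library, and that of *Pcgf3* without −IAA 0 h replicate 1 (0.21). Without −IAA 3 h replicate 1, the values were 0.15 for *Pcgf6*, 0.18 for *Pcgf3* and 0.24 for *Rybp*, and without replicate 2 of that group 0.35, 0.37 and 0.43, with all of these called. Of the 8 members called, the 6 that were higher with IAA have a transcript GC content of 40.6% to 47.1%, and the 2 that were lower have 53.2% (*Kdm2b*) and 54.8% (*Pcgf2*). Across all genes with a GC value, Spearman's rho between GC content and the log2 fold change with IAA came to −0.472 (BAP1-AID) and 0.023 (UTX-AID). The part of this trend in the members' values was not tested beyond the correction. *Ring1* (0.01) and *Pcgf1* (−0.16) did not pass the test. Between the clones, the IAA effect was called higher in BAP1-AID for 3 members and lower for 1 (14.9% and 10.9% of all genes), the third being *Rybp* (0.40, adjusted p = 0.00201; 0.16, adjusted p = 0.121 with the correction).

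**Figure D4:**
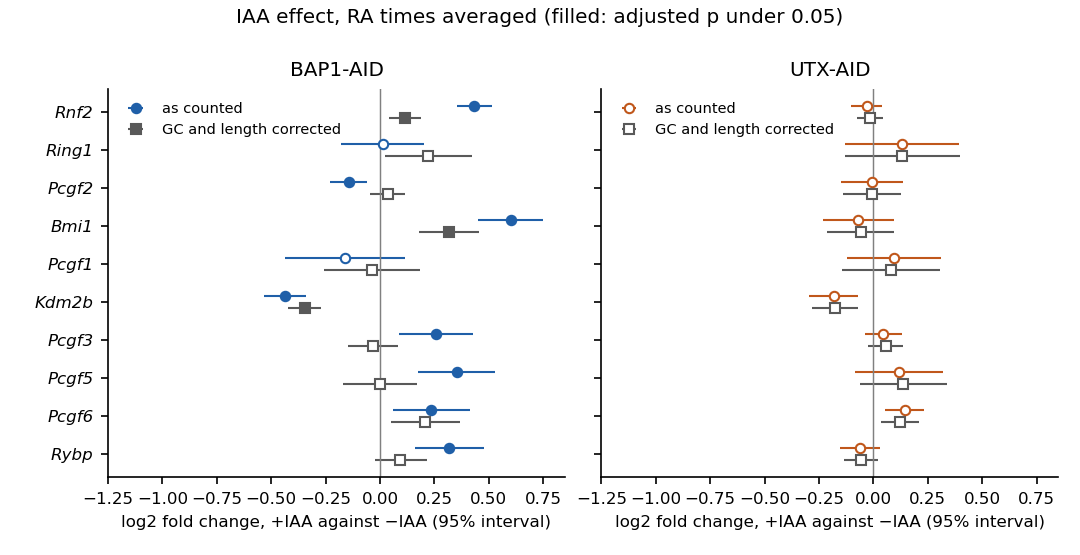
Log2 fold changes with IAA, averaged over RA times, with 95% intervals, as counted (circles) and with the GC and length correction (grey squares); filled symbols have an adjusted p under 0.05. In BAP1-AID, *Rnf2*, *Bmi1* and *Kdm2b* stay called after the correction, at 0.11, 0.32 and −0.35, and in UTX-AID 0 members are called either way.

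Of the 31 other PRC1 genes, IAA left 12 higher and 6 lower in BAP1-AID (17.9% and 18.2% of all genes), and 0 were called in UTX-AID, where 8 had an unadjusted p under 0.05. Counts and values of these genes are given without the GC and length correction, with which several member calls of this comparison did not hold. The highest ranked were *Mga* (0.68, adjusted p = 1.63e-06), the HP1γ gene *Cbx3* (0.37, adjusted p = 0.000186) and the PRC1.1 subunit *Skp1* (0.22, adjusted p = 0.000235), and, of those lower, *Cbx6* (−0.22, adjusted p = 0.00186), the PRC1.6 subunit *L3mbtl2* (−0.18, adjusted p = 0.00221) and the casein kinase subunit *Csnk2b* (−0.21, adjusted p = 0.00295).

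The clones differed in all 10 members without IAA. Averaged over the RA times, 5 members were higher and 5 lower in BAP1-AID than in UTX-AID, where 33.7% of genes were called higher and 33.6% lower. *Rnf2* was the only member past 1 on the log2 scale (24.6% of genes were), at 80.9 to 99.1 CPM in −IAA BAP1-AID against 202 to 244 CPM in −IAA UTX-AID (−1.34, standard error 0.0376, adjusted p = 8.75e-19). Its paralogue *Ring1* differed the other way, at 8.85 to 12.1 CPM against 3.84 to 6.53 CPM (0.89, standard error 0.111, adjusted p = 2.19e-07). The length-scaled ratio of *Rnf2* to *Ring1* was thus 5.60 ± 0.823 in −IAA BAP1-AID and 26.6 ± 5.46 in −IAA UTX-AID (SD, n = 6). *Pcgf2* (0.76), *Pcgf3* (0.50), *Kdm2b* (0.46) and *Pcgf6* (0.22) were higher in BAP1-AID, and *Rybp* (−0.58), *Pcgf1* (−0.58), *Bmi1* (−0.47) and *Pcgf5* (−0.39) lower. These values depended on the correction, which took *Rnf2* to −0.22, *Kdm2b* to −0.01 and *Rybp* to −0.00, lowered *Pcgf2* to 0.38 and *Ring1* to 0.53, raised *Pcgf3* to 1.00 and *Pcgf6* to 0.39, and turned *Bmi1* to 0.43 and *Pcgf5* to 0.38. *Pcgf1* was at −0.68. The ratio of *Rnf2* to *Ring1* above is uncorrected. Across all genes with a GC value, Spearman's rho between GC content and the clone difference without IAA was 0.352. Without BAP1-AID −IAA 3 h replicate 2, *Pcgf6* was at 0.12. Each clone is 1 line, so tag, line history and library preparation cannot be told apart in this comparison.

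Canonical and variant scaffolds were compared as the sum of *Pcgf2* and *Bmi1* over the sum of *Pcgf1*, *Pcgf3*, *Pcgf5* and *Pcgf6*, all per kb, without a test. Transcript levels do not show which complex a protein enters. The ratio was 0.393 ± 0.0510 without and 0.343 ± 0.0161 with IAA in BAP1-AID, and 0.313 ± 0.0291 without and 0.283 ± 0.0212 with IAA in UTX-AID (SD, n = 6). Singly, *Pcgf2* had a higher median than *Pcgf1*, *Pcgf3* and *Pcgf5* in both clones, and a lower one than *Pcgf6*. The sum of the variant scaffolds was the larger in all 24 libraries, where the ratio ran from 0.257 to 0.494. The highest value was that of BAP1-AID −IAA 3 h replicate 1, against 0.394 in its partner, and without it the −IAA mean of BAP1-AID was 0.373. In each arm the mean at 3 h was the highest, at 0.444, 0.356, 0.345 and 0.301 in −IAA and +IAA BAP1-AID and −IAA and +IAA UTX-AID, while the 3 h and the other libraries overlapped in 2 of these 4 arms. *Pcgf6* made up 61.0% to 73.9% of the variant sum in a library. Within the canonical pair, *Bmi1* was 17.2% ± 1.53 without and 25.9% ± 2.68 with IAA in BAP1-AID, with arms that did not overlap (14.5% to 19.1% against 21.9% to 28.2%), and 33.0% ± 3.00 without IAA in UTX-AID, where the arms overlapped (29.9% to 36.6% against 26.5% to 38.6%). These ratios and shares are uncorrected. Since the correction changed the sign of the clone difference of *Bmi1* and lowered that of *Pcgf2*, the shares are not compared between the clones.

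**Figure D5:**
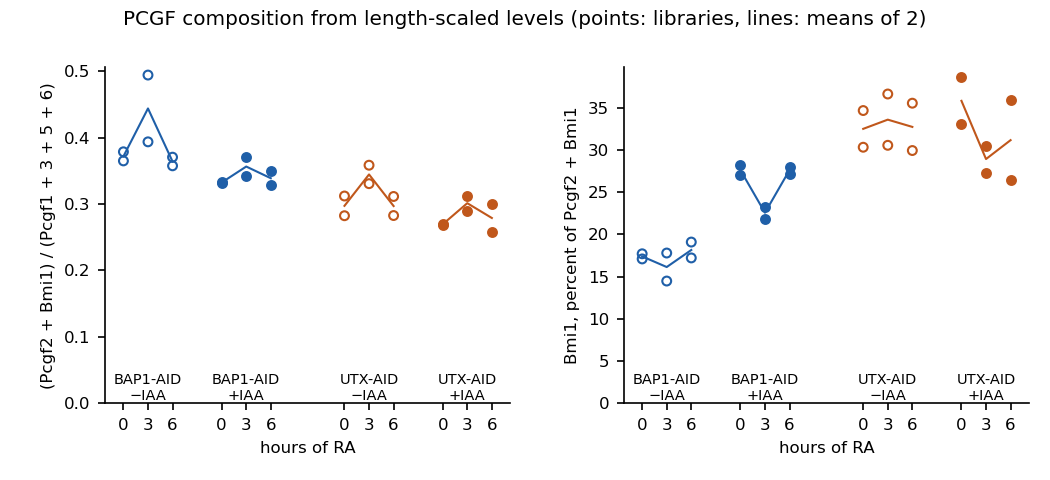
The ratio of canonical to variant PCGF transcripts (left) and the share of *Bmi1* in the canonical pair in percent (right), both from CPM per kb and both from 0, against hours of RA in each clone and arm, with one point per library and lines through the means of 2. The ratio stays under 0.5 in all 24 libraries, and the *Bmi1* share separates the arms of BAP1-AID but not those of UTX-AID.

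For each member, the gene with the most similar level over the 24 libraries was found among 12330 genes by the Pearson correlation of log2 CPM. These coefficients are descriptions, since the clone and arm structure is shared by all libraries. *Kdm2b* was nearest to *Fgf4* (r = 0.937, and 0.948 and 0.937 within BAP1-AID and UTX-AID), which encodes a growth factor of ESCs. *Rybp* was nearest to the transcription factor subunit gene *Nfyb* (0.969, and 0.966 and 0.936 within the clones), and *Rnf2* to the deubiquitinase gene *Usp1* (0.996, and 0.971 and 0.796). For the other 7 members, the nearest gene had r between 0.841 (*Pcgf5* and *Hyls1*) and 0.980 (*Pcgf3* and *Prdm2*), with 0.579 within UTX-AID for the latter.

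Reads could be shared in places. Exons of *Kdm2b*, *Pcgf2* and *Rnf2* overlap those of counted genes on the opposite strand (*A930024E05Rik* and *Rnf34*, *Cisd3*, and *Trmt1l*), and whether the counting used the strand is not given in the sources used here. The pairs *Rnf2* and *Ring1*, *Pcgf2* and *Bmi1*, and *Pcgf3* and *Pcgf5* are paralogues, for which the handling of shared reads is likewise not given.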

How the data were processed

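Total RNA was extracted with TRIzol and polyA libraries were made with oligo-dT beads, per the labels. The authors aligned reads to mm39 with HISAT2 (version 2.2.1), used SAMtools (version 1.19) and made the deposited estimated counts per gene with StringTie (version 2.2.1), which were whole numbers, not normalized, and were used as deposited. The gene annotation and strandedness are not given in the sources used here. The authors tested with DESeq2. The labels gave clone, arm, RA time and replicate of each library.

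Here, counts were tested in R 4.3.3 with edgeR 4.0.16 (TMM factors, filterByExpr at counts of at least 10 and totals of at least 15, quasi-likelihood test, one coefficient per group, Benjamini-Hochberg adjustment over all genes). The 12 libraries of a clone shared a fit, and clone differences came from all 24. At this depth, edgeR's estimate of the variation between replicates beyond counting error was 11.6% (BAP1-AID) and 11.9% (UTX-AID). All 10 members were named. Of the other PRC1 genes, up to 3 per direction with the smallest adjusted p were named for 2 comparisons per clone. The members and lists were chosen with earlier results of these data known. GENCODE vM39 matched 23897 genes (91.0%) by symbol. Promoters cover 250 bases before the canonical start, with exonic bases left out where printed. The GC and length correction entered, per library, spline offsets with 5 degrees of freedom. Alternatives were DESeq2 1.42.0, RLE size factors, no filter, the replicate number as a block, the correction alone and with the block, all 24 libraries in one fit, and each library left out. The fits were tested on simulated counts. The summed level of RA-induced marker genes is not reported here. Python 3.11.15, pandas 2.3.3 and matplotlib 3.10.9 gave the tables and plots.

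The replicates of a group correlated at 0.982 to 0.986 (Pearson, log2 of the deposited count plus 1, all genes) and held identical counts for 1.62% to 2.14% of expressed genes.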

Additional observations from a re-analysis of the deposited data

Results flagged for a closer look

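The effect of IAA averaged over the RA times differed between the clones for 4 members by a test of the difference itself (edgeR, all 24 libraries). Of all 16816 genes, 14.9% were called higher in BAP1-AID and 10.9% lower. On the log2 scale, the value in BAP1-AID minus that in UTX-AID was 0.691 for *Bmi1*, 0.484 for *Rnf2*, 0.401 for *Rybp* and −0.236 for *Kdm2b*. With the GC and length correction, *Bmi1* (0.38) and *Rnf2* (0.14) stayed called and *Rybp* (0.16) and *Kdm2b* (−0.16) did not. The 6 h RA response of *Rnf2* also differed between the clones, by 0.243, where 2.17% of all genes were called higher and 0.535% lower. This difference was not called with the correction (0.10, adjusted p = 0.497). The part of the GC trend in these differences was not tested beyond that correction.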

How the results depend on the processing

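Of 62 values of named members, all kept their call and direction with DESeq2, RLE size factors and the replicate block, and 61 without the filter. All 24 libraries in one fit, which was run on 47 of them, ended 7 calls. With the GC and length correction, 42 kept their call, 14 lost it and 6 changed sign, and with the correction and the replicate block these were 44, 13 and 5. The sign changes were, without and with the block, *Pcgf2* (0.036 and 0.036) and *Pcgf3* (−0.031 and −0.029) for the IAA effect in BAP1-AID, *Rnf2* for the IAA effect at 6 h (−0.054 and −0.053), and *Pcgf5* (0.381 and 0.384), *Bmi1* (0.432 and 0.470) and *Kdm2b* (−0.006, and 0.040 with the block, which is no sign change) between the clones. The correction removes the measured trend with GC content by construction.

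The number of members called for the IAA effect in BAP1-AID fell from 8 to 3 with the correction and to 4 with the correction and the block, while over all 15695 genes the calls went from 2810 higher and 2849 lower to 2384 and 1984 with the correction. In UTX-AID it went from 0 to 2 with DESeq2 and with the replicate block, and to 1 without the filter and with the correction and the block. Over all 16268 genes, the calls there were 140 higher and 287 lower, 261 and 455 with DESeq2, and 333 and 480 with the replicate block. The altered response at 6 h in BAP1-AID gave 1 call with DESeq2, which called 82 of 15695 genes higher and 222 lower. The IAA effect between the clones gave 2 calls in place of 4 with the correction, with which 1777 of 16816 genes were called higher and 1413 lower. The 6 h RA response between the clones gave 0 in place of 1 without the filter, with the correction, and with the correction and the block. The causes were not tested.

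With each library left out in turn, members called for the altered response in BAP1-AID ranged from 0 to 1 at 3 h and from 0 to 2 at 6 h, for the 3 h RA response in UTX-AID from 1 to 2, for the IAA effect in UTX-AID from 0 to 1, and for the 6 h RA response between the clones from 0 to 1.

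The canonical to variant ratio in BAP1-AID was 0.303 without and 0.301 with IAA when lengths were the union of annotated exons, and 0.318 with IAA without length scaling, where UTX-AID with IAA was 0.307. With *Rybp* and *Kdm2b* in the variant sum it fell to 0.211 and 0.193 (BAP1-AID) and to 0.148 and 0.145 (UTX-AID).

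Libraries of a clone with the same replicate number deviated together with correlations of −0.075 to 0.361 over 15 pairs of groups in BAP1-AID and 0.030 to 0.328 over 15 in UTX-AID. The main fits did not take the numbers as pairs, and the replicate block was run as an alternative. With the block, more genes were called for the IAA effect in UTX-AID, as given above.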
